A study of Mus musculus with 5 samples.

Results

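The Hox genes of the hindlimb are described here: all 39 gene rows whose symbol is Hoxa, Hoxb, Hoxc or Hoxd followed by a number, of 32285 gene rows in all. They comprise 11 genes of the Hoxa cluster on chromosome 6, 10 of the Hoxb cluster on chromosome 11, 9 of the Hoxc cluster on chromosome 15 and 9 of the Hoxd cluster on chromosome 2, and antisense genes were left out. The assay, 10x Multiome on nuclei from the skeletal muscle of mouse hindlimbs, counts RNA molecules (UMIs) and open chromatin (ATAC) in the same nucleus. The 5 libraries were Cacna1s KO at E18.5 and wild type (WT) of 4 ages (E14.5, E18.5, P5, adult), with 1 library per group. The KO embryos were Cacna1s-/- on C57BL/6N, carried a deletion allele with a cassette in place of the coding region, and lack the voltage sensor of excitation-contraction coupling. The WT mice were C57BL/6N, and adult muscle came from males and females. Each library pooled several animals (26 hindlimbs in the KO, and in WT 56 of E14.5, 14 of E18.5, 8 of P5 and 4 adult ones), and nuclei sorted as positive or negative for PCM1, a myonuclear stain, were mixed in equal volumes before loading. The mix therefore sets the proportions of the cell types, and no proportion is compared here.

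Hox genes encode homeodomain transcription factors that give cells their position along the body and along the limb. In each cluster the genes lie in the order in which they are used from the anterior to the posterior, and genes with the same paralog number in different clusters arose from 1 ancestor and often act together. In the mouse limb the Hoxa and Hoxd genes of high number pattern the thigh, the lower leg and the digits, the Hoxc genes of high number are used in the hindlimb more than in the forelimb, and connective tissue as well as muscle carries this code.

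Myonuclei were nuclei with at least 1.5% of their UMIs in Ttn, Neb, Trdn and Ryr1 (4% in the adult). Pdgfra-, Pax7-, Tnmd- and Pecam1-positive nuclei were below that limit and held at least 1 UMI of the named gene. These genes mark mesenchymal cells, muscle stem cells, tenocytes and endothelial cells. Between 3228 and 5106 nuclei were kept per library, with a median of 2888 to 7821 UMIs. Myonuclei numbered 981 in the KO and 1809, 1563, 1764 and 4387 in WT from E14.5 through E18.5 and P5 to adulthood. Pdgfra-positive nuclei numbered 1033 in the KO and 1325, 1441, 840 and 138 in the same WT order. Across all libraries 291 barcodes occurred in more than 1. The Pdgfra class carried its own markers in all 5 libraries: Col1a1, Col1a2, Col3a1, Dcn, Lum and Postn together reached 2947 to 12052 CPM there (a gene's UMIs scaled by all UMIs of the class), against 22.7 to 1828 CPM in myonuclei. Cacna1s itself had 8 UMIs (0.731 CPM) in KO myonuclei, against 2371 UMIs (189 CPM) in WT E18.5 myonuclei. With 1 library per group there is no test. Intervals below are 95% intervals for counting error only (exact Poisson for a level, exact binomial for a ratio), and they do not cover differences between animals, pools or dissections.

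Sequences from the Hoxa cluster are given first, because 3 of the Hox regions that were more open in myonuclei than in Pdgfra-positive nuclei after E14.5 lay there, and the outer Hoxa3 start is shown beside them because it was less open in myonuclei at E14.5 and E18.5. All are from mm10 (RefSeq, GRCm38.p6), 250 bases each, 5′ to 3′ on the strand given. Capitals mark CAGCTG, an E-box core of the kind bound by MyoD-family factors, which reads the same on both strands. The Hoxa5 promoter (chr6:52204588-52204837, minus strand) also lies inside the long span of Hoxa3. The peak beside the end of Hoxa4 (chr6:52189145-52189394, plus strand) lies in the same span and in an exon of the antisense gene Gm29430. The third stretch (chr6:52172770-52173019, minus strand) is the end of the intron before an inner Hoxa3 exon and lies in an exon of the antisense gene Gm15050, and the fourth (chr6:52213340-52213589, minus strand) lies before the outermost Hoxa3 start site and in an exon of the antisense gene Hoxaas3.
Hoxa5 promoter: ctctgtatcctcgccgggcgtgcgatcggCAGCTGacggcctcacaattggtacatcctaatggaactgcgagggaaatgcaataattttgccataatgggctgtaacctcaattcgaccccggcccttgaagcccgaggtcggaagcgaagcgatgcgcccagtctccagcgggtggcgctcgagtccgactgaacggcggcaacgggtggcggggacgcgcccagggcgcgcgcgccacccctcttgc
Peak centre beside Hoxa4: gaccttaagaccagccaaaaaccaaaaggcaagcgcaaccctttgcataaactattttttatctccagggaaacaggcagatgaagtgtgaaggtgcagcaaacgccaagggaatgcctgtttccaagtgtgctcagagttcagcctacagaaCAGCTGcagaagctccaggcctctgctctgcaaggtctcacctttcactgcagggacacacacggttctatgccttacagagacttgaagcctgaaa
Before the inner Hoxa3 exon: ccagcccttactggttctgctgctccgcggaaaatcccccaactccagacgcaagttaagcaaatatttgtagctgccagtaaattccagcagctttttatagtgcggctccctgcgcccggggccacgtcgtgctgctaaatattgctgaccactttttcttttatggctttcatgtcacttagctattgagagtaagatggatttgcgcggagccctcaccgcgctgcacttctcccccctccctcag
Hoxa3 outer start: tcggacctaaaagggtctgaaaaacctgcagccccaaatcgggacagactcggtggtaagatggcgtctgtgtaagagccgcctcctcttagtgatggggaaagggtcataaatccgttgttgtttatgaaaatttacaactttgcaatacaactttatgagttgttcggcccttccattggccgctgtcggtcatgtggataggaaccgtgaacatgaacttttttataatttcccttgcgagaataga
CAGCTG occurred at base 30 of the Hoxa5 promoter and at base 154 of the peak beside Hoxa4, and not in the other two. It occurs in 13% of 32851 RefSeq promoters of the same length. Among 24 Hox promoter windows, of 22 genes, 3 held it (Hoxa3, Hoxa5 and Hoxa6), and the RefSeq window of Hoxa3 lies beside the stretch printed here without overlap. Neither TGATNNAT, the core bound by PBX with HOX, nor TGACAG, the core bound by MEIS, was found on either strand of the 4 stretches. They occur in 7.68% and 15.9% of all promoters, and in 4 (Hoxa2, Hoxb1, Hoxb8, Hoxd11) and 2 (Hoxa2, Hoxa3) of the 24 Hox windows. The GC content was 63.6% in the Hoxa5 promoter, 49.2% beside Hoxa4, 52.4% before the inner Hoxa3 exon and 45.2% before the outer Hoxa3 start.

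The summed Hox level was higher in WT myonuclei at each later stage and lower in WT Pdgfra-positive nuclei at each later stage up to P5. In WT myonuclei the 39 genes summed to 1764 UMIs (181 CPM, interval 173 to 190) for E14.5, 3418 UMIs (273 CPM, 264 to 282) for E18.5, 3692 UMIs (298 CPM, 289 to 308) for P5 and 7176 UMIs (365 CPM, 357 to 373) in the adult. In WT Pdgfra-positive nuclei they summed to 3898 UMIs (633 CPM, 613 to 653), 4844 UMIs (472 CPM, 459 to 485), 1978 UMIs (391 CPM, 374 to 408) and 139 UMIs (473 CPM, 397 to 558) at the same stages. The stages did not overlap in their intervals in either class before the adult, and the adult Pdgfra-positive interval overlapped those of E18.5 and P5.

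The ratio of the sums in myonuclei was 1.51 (1.42 to 1.60) for E18.5 over E14.5, 1.09 (1.04 to 1.14) for P5 over E18.5 and 1.22 (1.18 to 1.27) in the adult over P5. In Pdgfra-positive nuclei it was 0.746 (0.715 to 0.778), 0.828 (0.785 to 0.872) and 1.21 (1.01 to 1.44). As a result the 2 classes lay closer together with age: myonuclei held 28.6%, 57.9%, 76.3% and 77.2% of the Hox level of Pdgfra-positive nuclei from E14.5 through E18.5 and P5 to adulthood. The median gene was itself lower in myonuclei than in Pdgfra-positive nuclei, with a log2 ratio of -0.26 in the KO and of -0.42, -0.29, -0.56 and -0.25 in WT at the 4 stages, and measured against that median the myonuclear Hox sum at P5, and in these libraries only there, was above that of Pdgfra-positive nuclei (log2 difference 0.17).

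RNA of mesenchymal cells was present among myonuclei, and its level also differed between stages. The mesenchymal collagens reached 9.54%, 16.7%, 14.4% and 0.723% of their Pdgfra-class level in WT myonuclei from E14.5 through E18.5 and P5 to adulthood, and Pdgfra itself 2.50%, 7.41%, 5.53% and 0.247%. Both shares, like that of Hox, were higher at E18.5 than at E14.5, and in the adult both were lower than at P5 while that of Hox was not. The share of Pdgfra is set low by the rule, since its reference class was chosen by Pdgfra UMIs. The part of mesenchymal RNA in the Hox levels of myonuclei was not tested. When myonuclei were limited to nuclei past 3% of myonuclear RNA (8% in the adult) with no Pdgfra, Pax7, Tnmd or Pecam1 UMI, a choice made after the data were seen, the Hox sum was 145, 242, 282 and 366 CPM at the 4 stages. Nuclei with Csf1r and none of the other markers, macrophages that reach the limb through the blood, held 36.4 CPM of Hox RNA (4 UMIs), 88.6 CPM (28 UMIs), 73.2 CPM (23 UMIs) and 85.3 CPM (2 UMIs) at these stages and 109 CPM (67 UMIs) in the KO. Levels near these cannot be told apart from free RNA.

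**Figure D1:**
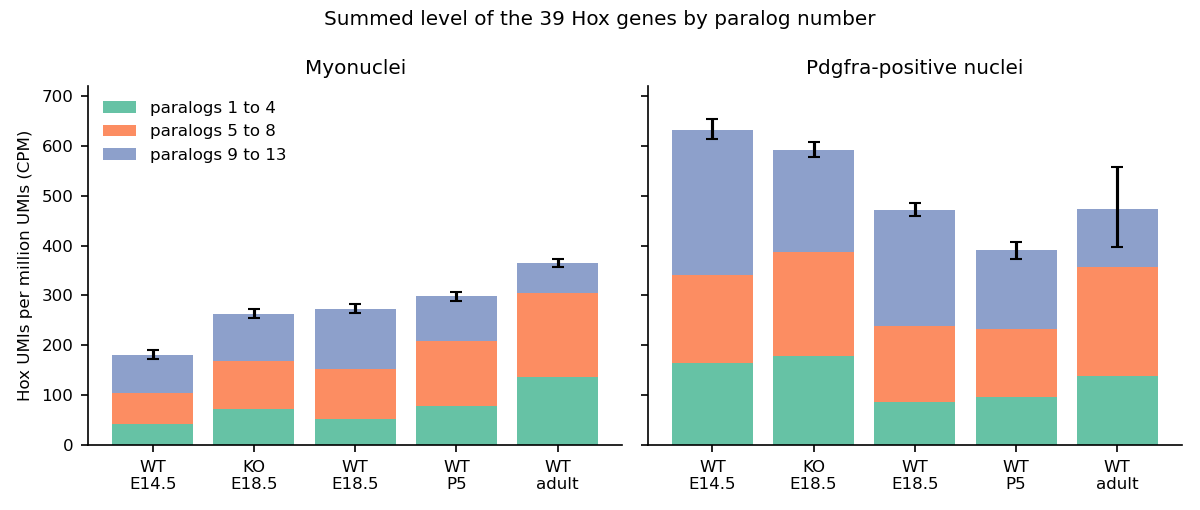
Summed level of the 39 Hox genes (CPM, bar height) in myonuclei and in Pdgfra-positive nuclei of each library, split by colour into paralogs 1 to 4, 5 to 8 and 9 to 13; error bars are exact Poisson 95% intervals of the total. Myonuclear totals run from 181 CPM at E14.5 to 365 CPM in the adult, with the paralog 1 to 4 part growing from 41.2 to 137 CPM.

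By cluster, Hoxc and Hoxa made up most of the Hox RNA of myonuclei, and Hoxc gained in share. Hoxc summed to 82.6, 139, 178 and 243 CPM in WT myonuclei from E14.5 through E18.5 and P5 to adulthood, which was 45.6%, 51%, 59.8% and 66.6% of all Hox UMIs. Hoxa summed to 72.7, 104, 99.5 and 114 CPM, or 40.1%, 38.1%, 33.4% and 31.2%. Hoxd, which with Hoxa patterns the limb from thigh to digit, was lower after E18.5, at 23.4, 27.8, 17.6 and 7.32 CPM. Hoxb was close to absent, with 23, 26, 32 and 12 UMIs (2.36, 2.08, 2.58 and 0.61 CPM).

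In Pdgfra-positive nuclei the order was different at E14.5, where Hoxa led with 317 CPM before Hoxc with 226 CPM. At E18.5, P5 and in the adult Hoxc had 227, 223 and 347 CPM and Hoxa 192, 127 and 116 CPM. Thus Hoxc stayed at one level through P5 while Hoxa was lower at each stage. Hoxb had 38.1 CPM at E14.5, 9.06 CPM at E18.5 and 8.69 CPM at P5, and a single UMI in the adult. Hoxd had 51.5, 43.2 and 32.2 CPM, and 2 UMIs in the adult.

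By paralog number, myonuclei moved toward the anterior genes. Paralogs 1 to 4 took 22.7%, 18.8%, 26.3% and 37.5% of Hox UMIs in WT myonuclei from E14.5 through E18.5 and P5 to adulthood (41.2, 51.3, 78.3 and 137 CPM). Paralogs 5 to 8 took 34.7%, 36.8%, 43.9% and 46.3% (62.8, 101, 131 and 169 CPM). Paralogs 9 to 13 took 42.6%, 44.4%, 29.8% and 16.2% (77.1, 121, 89 and 59.1 CPM). From E18.5 on, the posterior genes were lower at each stage while the other 2 groups were higher: the ratios of paralogs 1 to 4, 5 to 8 and 9 to 13 were 1.53, 1.30 and 0.734 at P5 over E18.5 and 1.75 (1.62 to 1.88), 1.29 and 0.664 (0.611 to 0.722) in the adult over P5. In the strict myonuclei they were 1.68, 1.48 and 0.72, and 1.81, 1.37 and 0.707.

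Pdgfra-positive nuclei shared the lower posterior level after E18.5, at 234, 157 and 116 CPM of paralogs 9 to 13 at E18.5, P5 and in the adult. Their paralogs 1 to 4 had 164, 86.6, 95.4 and 139 CPM at the 4 stages and paralogs 5 to 8 had 177, 151, 138 and 218 CPM. At E18.5 over E14.5 all 3 groups were lower in this class (0.529, 0.855 and 0.801), whereas all 3 were higher in myonuclei (1.25, 1.60 and 1.57).

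Of the 39 genes, 25 had at least 20 UMIs in myonuclei or Pdgfra-positive nuclei of 1 or more libraries and 14 did not. Hoxb1 and Hoxb13 had no UMI in either class of any library, so that each allows up to 3 UMIs per sum. Hoxc12 had 1 UMI over both classes and all libraries, Hoxd1 5, Hoxd12 6, Hoxc13 8, Hoxb8 and Hoxd13 9 each, Hoxb7 13, Hoxa13 38, Hoxb2 45, Hoxa2 83 and Hoxa4 90. Low counts therefore included both ends of the clusters. Hoxa13 and Hoxd13, which pattern the digits, held 38 and 9 UMIs in these muscles of the hindlimb.

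Levels of different genes were compared per kilobase of gene span, since reads from introns were counted and the spans differ. On that scale Hoxc8 stood first in myonuclei of all 5 libraries, at 5.19 CPM per kb in the KO and 3.43, 7.27, 8.98 and 12 CPM per kb in WT from E14.5 through E18.5 and P5 to adulthood. Hoxa9 was second at E14.5 (3.33) and at E18.5 (5.47), and at E14.5 its level cannot be separated from that of Hoxc8 by counting error. At P5 Hoxc10 (3.26), Hoxa7 (3.22), Hoxa9 (3.14) and Hoxa5 (3.05) followed within a narrow range, and in the adult Hoxc4 (4.35), Hoxa5 (3.88) and Hoxa7 (3.72). Hoxa3 and Hoxc5, which are among the highest by CPM, had 0.269 and 0.601 CPM per kb at E18.5, since their spans are long. In Pdgfra-positive nuclei the first by this scale was Hoxa10 at E14.5 (11.9 CPM per kb) and Hoxc8 in the other libraries.

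Some of these genes share their span on the same strand, and how reads there were assigned is not stated in any source used here. Hoxa4, Hoxa5 and Hoxa6 lie wholly inside the span of Hoxa3, Hoxc6, Hoxc8 and Hoxc9 inside that of Hoxc5 with 87.3% of Hoxc10, and Hoxd4 inside that of Hoxd3. Values of Hoxa3, Hoxc5 and Hoxd3 are uncertain against those of the genes within them. Antisense genes overlap several members, among them Hoxa3 to Hoxa7, Hoxa11, Hoxb2, Hoxb3, Hoxb5, Hoxb6, Hoxd3, Hoxd4 and Hoxd8, and the use of strand in counting is likewise not stated.

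Hoxa3 and Hoxc4, anterior genes known from the neck and the cervical spine, had the highest ratios of all members in adult over P5 myonuclei. Hoxa3 had 90, 149, 287 and 1036 UMIs (9.24, 11.9, 23.2 and 52.7 CPM) in WT myonuclei from E14.5 through E18.5 and P5 to adulthood. Hoxc4 had 141, 223, 468 and 1533 UMIs (14.48, 17.8, 37.8 and 78.0 CPM). Both levels were higher at each stage without overlap of their intervals from E18.5 on. The ratio of Hoxa3 was 1.95 (1.59 to 2.39) at P5 over E18.5 and 2.27 (1.99 to 2.60) in the adult over P5, and that of Hoxc4 was 2.12 (1.80 to 2.50) and 2.06 (1.86 to 2.29). In the strict myonuclei the ratios were 2.22 and 2.23 for Hoxa3 and 2.18 and 2.13 for Hoxc4. In WT Pdgfra-positive nuclei Hoxa3 had 452, 287, 95 and 9 UMIs (73.4, 28, 18.8 and 30.6 CPM) at the 4 stages, and there its ratio was 0.381 (0.328 to 0.443) at E18.5 over E14.5 and 0.671 at P5 over E18.5. Hoxc4 had 49.3, 34.8, 51.5 and 109 CPM in the same class.

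Hoxc5, Hoxc6 and Hoxc8, used at the level of the forelimb and chest in the body axis, were also higher in later myonuclei. Hoxc5 had 253, 376, 541 and 1274 UMIs (26, 30, 43.7 and 64.8 CPM) in WT myonuclei, and Hoxc8 117, 319, 390 and 824 UMIs (12, 25.5, 31.5 and 41.9 CPM). Hoxc6 had 117, 235, 236 and 408 UMIs (12, 18.8, 19.1 and 20.7 CPM), a level that hardly differed after E18.5. In Pdgfra-positive nuclei Hoxc8 was close to constant, at 37.7, 38.5, 37.7 and 61.2 CPM, and the interval of the adult, with 18 UMIs, spans the others.

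Hoxa5 and Hoxa7 belong to the same middle group. Hoxa5, which patterns the neck and upper chest and acts in lung, had 17, 57, 107 and 216 UMIs (1.75, 4.55, 8.64 and 11 CPM) in WT myonuclei and 97, 101, 29 and 4 UMIs (15.7, 9.84, 5.73 and 13.6 CPM) in WT Pdgfra-positive nuclei. Its ratio was 2.61 (1.5 to 4.78) for E18.5 over E14.5 and 1.90 (1.36 to 2.66) for P5 over E18.5 in myonuclei, and at P5 over E18.5 it was 0.582 in Pdgfra-positive nuclei. In the strict myonuclei the first of these ratios was 1.54 (0.509 to 6.28) and the next 3.01.

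Hoxa7 was the one member whose level was at least 2-fold higher in myonuclei than in Pdgfra-positive nuclei in a WT library with enough UMIs. It had 69, 202, 294 and 539 UMIs (7.08, 16.1, 23.7 and 27.4 CPM) in WT myonuclei at the 4 stages and 45, 68, 32 and 2 UMIs (7.30, 6.62, 6.32 and 6.80 CPM) in WT Pdgfra-positive nuclei. The level in Pdgfra-positive nuclei was flat while that in myonuclei was higher at each stage. The ratio of myonuclei to Pdgfra-positive nuclei was 0.970 at E14.5, 2.44 (1.84 to 3.26) for E18.5, 3.76 (2.60 to 5.59) for P5 and 4.03 (1.11 to 33.4) for adult muscle, and 1.57 (1.19 to 2.09) in the KO.

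The posterior genes Hoxa9, Hoxa10, Hoxa11 and Hoxd11 were lower in myonuclei at P5 than at E18.5. Hoxa9, known from blood stem cells and, in the mouse, from aged muscle stem cells, had 259, 547, 311 and 259 UMIs (26.6, 43.7, 25.1 and 13.2 CPM) in WT myonuclei. Hoxa10, which with Hoxc10 and Hoxd10 patterns the thigh, had 237, 285, 171 and 132 UMIs (24.3, 22.8, 13.8 and 6.71 CPM). Both were lower at P5 than at E18.5, by ratios of 0.575 (0.498 to 0.662) and 0.606, and lower in the adult than at P5, by 0.525 and 0.486 (0.385 to 0.614). Hoxd11 had 33, 39, 14 and 0 UMIs (3.39, 3.12, 1.13 and 0 CPM), and Hoxa11 had 18, 23, 7 and 2 UMIs.

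Of the Hoxc genes of the same numbers, Hoxc9 and Hoxc10 lay near their E18.5 level at P5. Hoxc9 had 61, 271, 286 and 406 UMIs (6.26, 21.6, 23.1 and 20.6 CPM) in WT myonuclei, with a ratio of 3.46 (2.61 to 4.64) at E18.5 over E14.5. Hoxc10 had 72, 215, 206 and 262 UMIs (7.39, 17.2, 16.6 and 13.3 CPM), with a ratio of 2.32 (1.77 to 3.08) for the same stages, and its lower level in the adult than at P5 turned into a higher one when measured against the median gene (log2 difference 0.13). Hoxc11 had 42, 103, 82 and 74 UMIs (4.31, 8.23, 6.62 and 3.76 CPM). Like Hoxa9, Hoxc11 was highest at E18.5, but its intervals at E18.5 (6.72 to 9.98) and P5 (5.26 to 8.22) overlapped. Its adult interval (2.95 to 4.72) lay below both.

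In WT Pdgfra-positive nuclei the posterior Hoxa and Hoxd genes were highest at E14.5 or E18.5. Hoxa10 had 709, 597, 175 and 12 UMIs (115, 58.2, 34.6 and 40.8 CPM), and its ratio at E18.5 over E14.5 was 0.505. Hoxa9 had 546, 872, 290 and 7 UMIs (88.6, 84.9, 57.3 and 23.8 CPM). Hoxd11 had 127, 119, 35 and 0 UMIs (20.6, 11.6, 6.91 and 0 CPM), and Hoxa11 66, 26, 9 and 0 UMIs. Hoxc9 had 101, 351, 132 and 7 UMIs (16.4, 34.2, 26.1 and 23.8 CPM), and was the one member at least 2-fold higher at E18.5 than at E14.5 in this class, at 2.09 (1.67 to 2.63).

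Hoxd4, a neighbour of Hoxd3 that acts in the cervical spine, had 82, 138, 86 and 35 UMIs (8.42, 11, 6.94 and 1.78 CPM) in WT myonuclei at the 4 stages. Its levels in Pdgfra-positive nuclei were close to these, at 8.28, 9.84 and 8.69 CPM at E14.5, E18.5 and P5. The ratio of the classes was 1.02, 1.12 and 0.799 at these stages. Hoxd3 and Hoxd8 had 58 to 93 and 26 to 51 UMIs in myonuclei of the 5 libraries, and Hoxd9 and Hoxd10 had 9 to 18 and 3 to 11.

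**Figure D2:**
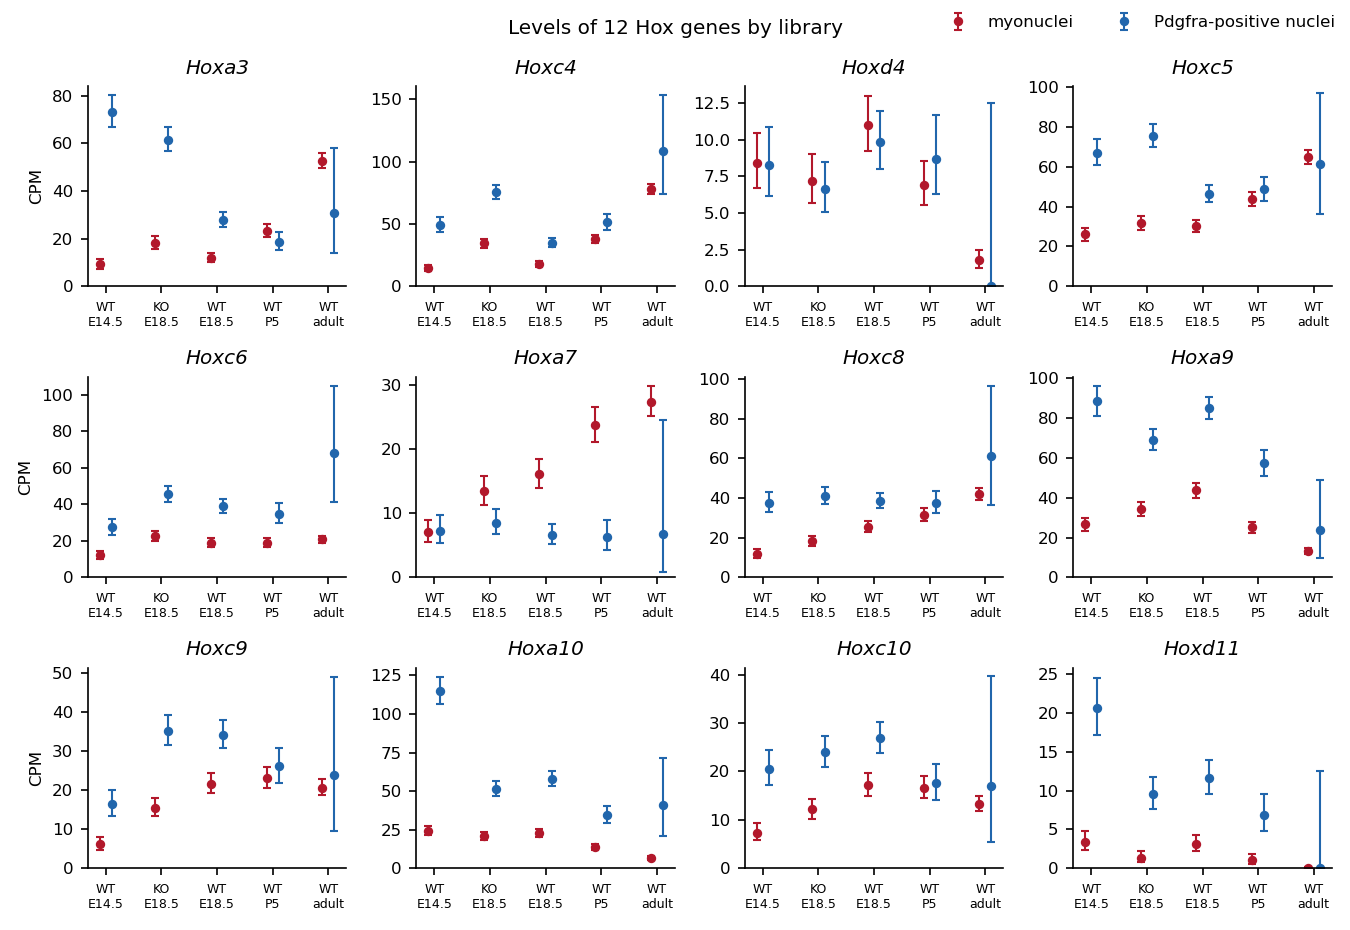
Level of 12 Hox genes (CPM, 1 panel per gene with its own axis from 0) in myonuclei and in Pdgfra-positive nuclei by library, with exact Poisson 95% intervals. Hoxa7 sits at 27.4 CPM in adult myonuclei and 7.08 CPM at E14.5, Hoxa10 is lowest in adult myonuclei at 6.71 CPM, and adult Pdgfra-positive intervals are wide.

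Members past 2-fold were counted among those with at least 20 UMIs in the 2 sums and read beside the same share of all genes. In myonuclei at E18.5 over E14.5, 5 of 19 members were at least 2-fold higher (Hoxa5, Hoxa7, Hoxc8, Hoxc9 and Hoxc10), where 17.6% of all genes were, and 0 of 19 at least 2-fold lower, where 10.3% of all genes were. The median log2 ratio was 0.39 over the members and 0.16 over all genes. At P5 over E18.5, 2 of 22 were higher (Hoxa4 and Hoxc4; all genes 8.01%) and 2 lower (Hoxa11 and Hoxd11; all genes 20%), with medians of 0.06 and -0.34. In the adult over P5, 2 of 19 were higher (Hoxa3 and Hoxc4; all genes 7.84%) and 3 lower (Hoxa4, Hoxa10 and Hoxd4, the last at 0.256 with an interval of 0.168 to 0.384; all genes 35.2%), with medians of -0.16 and -0.45. The lower members made up 9.09% and 15.8% of those counted at these 2 steps, and whether these shares differ from those of all genes was not tested.

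In Pdgfra-positive nuclei at E18.5 over E14.5, 1 of 26 members was at least 2-fold higher (Hoxc9), where 9% of all genes were, and 8 were at least 2-fold lower (Hoxa2, Hoxa3, Hoxa11, Hoxb3, Hoxb4, Hoxb5, Hoxb6 and Hoxb9), where 10.9% of all genes were. The median was -0.57 over the members and 0.01 over all genes. The lowest ratios were 0.168 (0.0614 to 0.400) for Hoxb4, 0.189 (0.113 to 0.306) for Hoxb3 and 0.226 for Hoxb6. At P5 over E18.5, 1 of 21 was higher (Hoxb3, 2.03 with an interval of 1.09 to 3.78; all genes 5%) and 1 lower (Hoxd8, 0.412; all genes 8.9%). The adult Pdgfra-positive class, with 139 Hox UMIs, was too shallow for such a count.

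Between the 2 classes, 0 of 25 members were at least 2-fold higher in myonuclei at E14.5, where 13% of all genes were, and 20 of 25 were at least 2-fold lower, where 27.8% of all genes were. The widest gaps at E14.5 were those of Hoxb5, which was 36.4-fold lower in myonuclei (5.90 to 1498) with 1 UMI there, Hoxb6, 20.3-fold lower (8.91 to 57.0), and Hoxb3, 19.2-fold lower (8.42 to 54.1). Among the members with more UMIs, Hoxa3 was 7.94-fold lower, Hoxd11 6.08-fold and Hoxa10 4.73-fold. At E18.5, 1 of 21 was higher (Hoxa7; all genes 15.5%) and 8 were lower (all genes 26.7%), and at P5 1 of 20 was higher (Hoxa7; all genes 14.6%) and 6 were lower (all genes 34.6%). In the KO, 0 of 24 were higher (all genes 15.1%) and 16 were lower (all genes 25.7%). The share of members that were lower in myonuclei was thus near that of all genes at P5 and above it at E14.5 and in the KO. Hoxa3 was 2.35-fold lower in myonuclei at E18.5, and in the adult its ratio of 1.72 (0.904 to 3.78) included no difference.

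The KO and WT libraries at E18.5 differed little in the Hox sum of myonuclei and more in its make-up. KO myonuclei held 2885 Hox UMIs (264 CPM, 254 to 273), against 3418 UMIs (273 CPM, 264 to 282) in WT E18.5 myonuclei, a ratio of 0.966 (0.919 to 1.02). KO myonuclei were read deeper, with a median of 10200 UMIs, against 6971 in WT, and 28.2% and 26.8% of them held a marker UMI of another class. The part of these differences in the result was not tested. Paralogs 1 to 4 had 72.1 CPM in the KO, against 51.3 CPM in WT (ratio 1.41, 1.27 to 1.56), paralogs 5 to 8 had 97.2 and 101 CPM (0.966), and paralogs 9 to 13 had 94.4 and 121 CPM (0.779, 0.719 to 0.844). The KO profile by paralog number thus stood on the anterior side of that of WT at the same age. In the strict myonuclei, of which there were 433 in the KO and 863 in WT E18.5, the 3 ratios were 1.23 (1.03 to 1.47), 0.978 and 0.688 (0.601 to 0.785). The higher sum of paralogs 1 to 4 in KO myonuclei rested mainly on Hoxc4 and, to a lesser extent, on Hoxa3. Of the other members of this group, Hoxb3 was also higher in the KO and Hoxd4 was lower. In the strict set the interval of Hoxa3 included no difference and that of Hoxc4 did not.

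Of 21 members in myonuclei, 2 were at least 2-fold higher in the KO (Hoxb3 and Hoxb6), where 7.06% of all genes were, and 1 at least 2-fold lower (Hoxd11), where 5.75% of all genes were. The median log2 ratio was -0.13 over the members and -0.03 over all genes. Hoxc4 had 376 UMIs (34.4 CPM) in KO myonuclei, against 223 UMIs (17.8 CPM) in WT, a ratio of 1.93 (1.63 to 2.29), and 1.85 (1.42 to 2.43) in the strict set. Hoxa3 had 200 UMIs (18.3 CPM) in the KO and 149 UMIs (11.9 CPM) in WT, a ratio of 1.54 (1.24 to 1.91), and 1.30 (0.9 to 1.88) in the strict set, an interval that includes 1. Among the posterior genes, Hoxd11 had 15 UMIs (1.37 CPM) in the KO and 39 UMIs (3.12 CPM) in WT, a ratio of 0.440 (0.225 to 0.817).

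Lower levels in KO myonuclei ran through Hoxc8 to Hoxc11. Hoxc8 had 199 UMIs (18.2 CPM) in the KO and 319 UMIs (25.5 CPM) in WT, a ratio of 0.714 (0.595 to 0.855). The ratios of Hoxc9, Hoxc10 and Hoxc11 were 0.718 (0.589 to 0.873), 0.708 (0.566 to 0.883) and 0.722 (0.521 to 0.994), so that the 4 genes differed by nearly the same factor. Hoxa9 had 377 UMIs (34.5 CPM) in the KO and 547 UMIs (43.7 CPM) in WT (0.789, 0.690 to 0.901), and Hoxd4 had 79 UMIs (7.22 CPM) in the KO and 138 UMIs (11 CPM) in WT (0.655, 0.490 to 0.870). Hoxc5 (1.06) and Hoxc6 (1.20) lay between the 2 ends.

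In Pdgfra-positive nuclei the KO sum was higher, at 5547 UMIs (592 CPM, 577 to 608), against 4844 UMIs (472 CPM, 459 to 485) in WT E18.5, a ratio of 1.25 (1.21 to 1.30). Of 28 members, 8 were at least 2-fold higher in the KO (Hoxa3, Hoxa4, Hoxa6, Hoxb3, Hoxb4, Hoxb5, Hoxb6 and Hoxc4), where 7.61% of all genes were, and 0 were at least 2-fold lower, where 5.41% of all genes were. Hoxd8 at 0.501 (0.306 to 0.803) and Hoxd10 at 0.502 (0.289 to 0.848) lay just outside that limit. The median was 0.21 over the members and -0.05 over all genes. All 8 have paralog numbers from 3 to 6.

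The Hoxb genes differed most. Hoxb4 had 53 UMIs in KO Pdgfra-positive nuclei and 7 in WT, a ratio of 8.30 (3.76 to 21.6). Hoxb3 had 136 UMIs (14.52 CPM) in the KO and 23 UMIs (2.24 CPM) in WT, a ratio of 6.48 (4.14 to 10.6), and Hoxb6 had 123 UMIs (13.1 CPM) and 29 UMIs (2.83 CPM), a ratio of 4.65 (3.08 to 7.23). Hoxb3 to Hoxb6 are known from the hindbrain, the spinal cord and the front of the body axis. In WT Pdgfra-positive nuclei at E14.5, Hoxb3, Hoxb4 and Hoxb6 had 11.8 CPM, 25 UMIs and 12.5 CPM, so that the KO levels of these genes at E18.5 were close to the WT levels of the earlier stage.

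Hoxa3 had 577 UMIs (61.6 CPM) in KO Pdgfra-positive nuclei, against 287 UMIs (28 CPM) in WT E18.5, a ratio of 2.20 (1.91 to 2.55). Hoxc4 had 709 UMIs (75.7 CPM) in the KO and 357 UMIs (34.8 CPM) in WT (2.18, 1.91 to 2.48), and Hoxc5 had 707 UMIs (75.5 CPM) and 477 UMIs (46.5 CPM) (1.62, 1.44 to 1.83). Hoxc8 to Hoxc11 had ratios of 0.893 to 1.07 in this class. By paralog number the ratios were 2.06 (1.90 to 2.24) for 1 to 4, 1.38 (1.29 to 1.47) for 5 to 8 and 0.876 (0.825 to 0.931) for 9 to 13, the same order as in myonuclei. Paralogs 9 to 13 were lower in the KO in both classes and paralogs 1 to 4 higher in both.

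**Figure D3:**
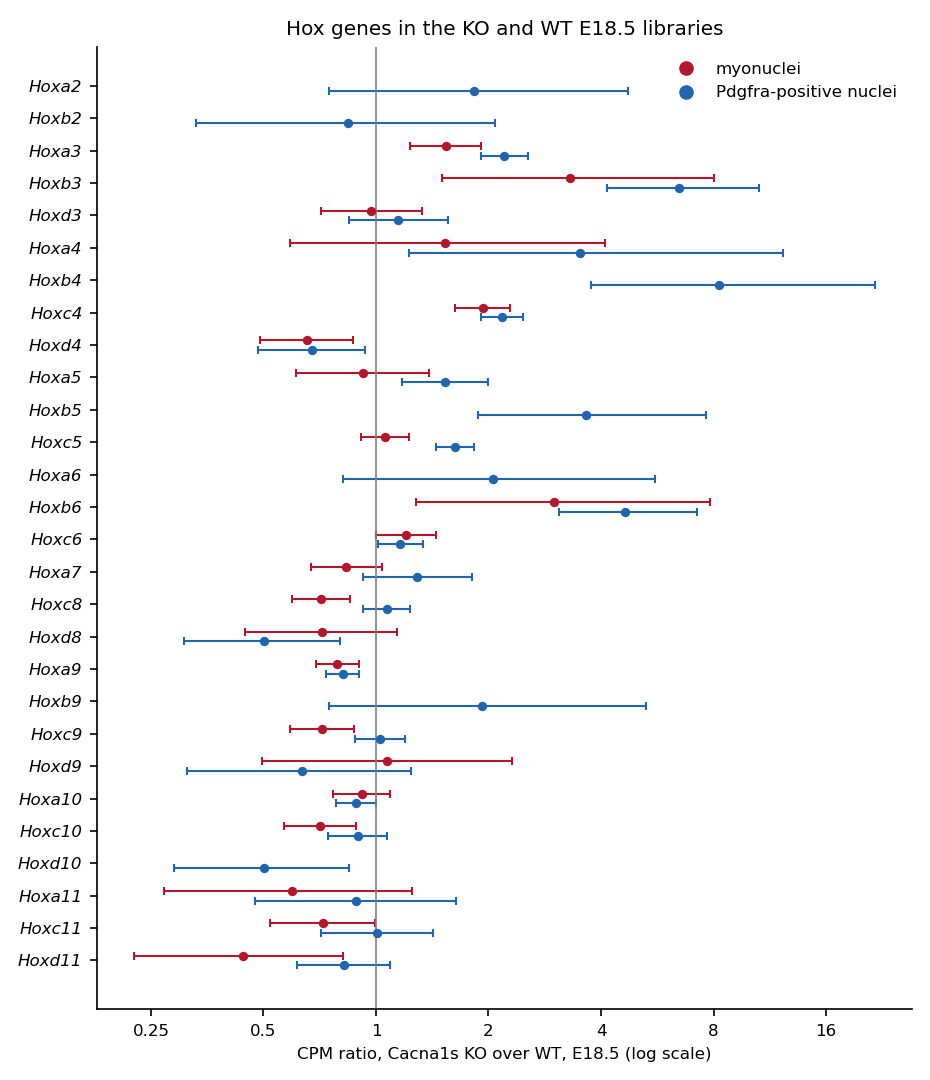
Ratio of CPM in the Cacna1s KO over the WT E18.5 library (log axis) for each Hox gene with at least 20 UMIs in the 2 sums, ordered by paralog number from top to bottom, in myonuclei and in Pdgfra-positive nuclei; bars are exact binomial 95% intervals. Hoxb4 in Pdgfra-positive nuclei lies at 8.30 and Hoxd11 in myonuclei at 0.440.

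Other values moved with these Hox levels between the 2 libraries. Pitx1 and Tbx4, transcription factors that mark the hindlimb, had 18.8 and 24.8 CPM in KO Pdgfra-positive nuclei, against 34.4 and 47.5 CPM in WT E18.5, and Meis2, a Hox cofactor that marks the proximal limb, had a ratio of 1.80. In the KO, 177 of 1033 Pdgfra-positive nuclei held a UMI of Hoxb3 to Hoxb6. These 177 nuclei had 6.91 CPM of Tbx4 and the other nuclei 29.7 CPM, with 86.8 and 54.6 CPM of Hoxa3, 97.2 and 69.7 CPM of Hoxc4, and 55.2 and 73 CPM of Hoxa9, at median depths of 10542 and 7347.5 UMIs. The level along the hindlimb at which the muscles were cut is not stated in any source used here, and the part of the dissection in the KO and WT difference was not tested.

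The higher Hoxb level in KO myonuclei could not be followed in the strict set, which held few Hoxb UMIs. All KO myonuclei held 80 Hoxb UMIs (7.31 CPM), against 26 UMIs (2.08 CPM) in WT E18.5, a ratio of 3.52 (2.24 to 5.71). The strict myonuclei held 6 Hoxb UMIs in the KO and 5 in WT, a ratio of 1.69 (0.430 to 7.00), an interval that includes 1 and also the ratio of all myonuclei. Csf1r-positive nuclei held 16 Hoxb UMIs (26.1 CPM) in the KO and 0 in WT E18.5. The mesenchymal collagens had 994 CPM in KO myonuclei, 10.9% of the level of KO Pdgfra-positive nuclei, and 2341 CPM in WT, 16.7%.

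In the other classes the KO sums were 551 CPM in Pax7-positive nuclei, against 437 CPM in WT E18.5 (1.26, 1.14 to 1.39), 503 and 454 CPM in Tnmd-positive nuclei (1.11, 1.00 to 1.23), and 520 and 526 CPM in Pecam1-positive nuclei (0.989, 0.899 to 1.09). Hoxc made up most of the difference in Pax7-positive nuclei, with 332 CPM in the KO and 221 CPM in WT. The interval for endothelial nuclei included 1.

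**Figure D4:**
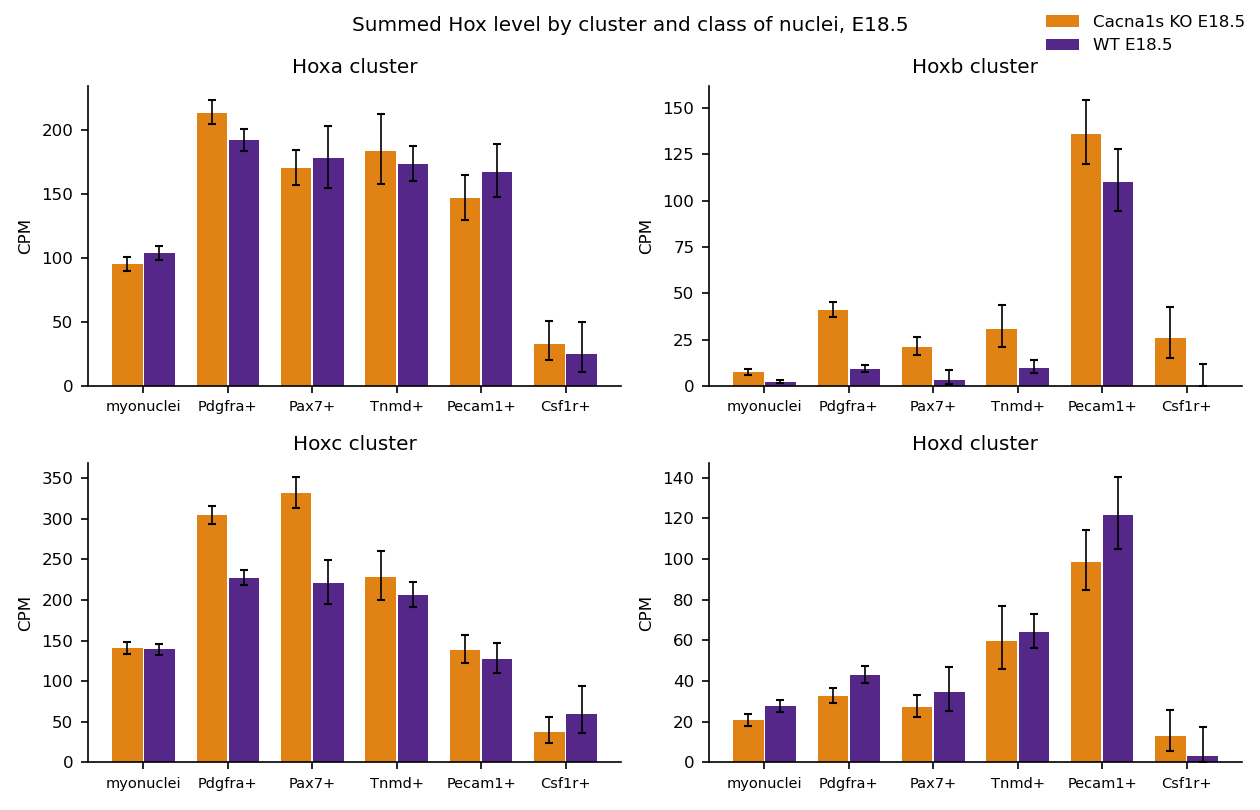
Summed level (CPM, bars from 0) of the Hoxa, Hoxb, Hoxc and Hoxd clusters in 6 classes of nuclei of the Cacna1s KO and WT E18.5 libraries, with exact Poisson 95% intervals. Hoxb reaches 136 CPM in KO and 110 CPM in WT Pecam1-positive nuclei and 41.1 and 9.06 CPM in Pdgfra-positive nuclei.

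Endothelial nuclei had a Hox profile of their own, with Hoxb and Hoxd genes where mesenchymal nuclei had Hoxc. Over all Pecam1-positive nuclei the Hox sum was 520 CPM in the KO and 428, 526 and 443 CPM in WT at E14.5, E18.5 and P5. When nuclei positive for both Pecam1 and Pdgfra were left out, Pecam1-positive nuclei held 140, 169 and 121 CPM of Hoxb in WT at these stages, against 38.4, 6.80 and 4.69 CPM in Pdgfra-positive nuclei. The ratio was 3.66 (2.76 to 4.8), 24.8 (18.4 to 33.8) and 25.8 (15.8 to 43.9), and 4.39 in the KO (174 against 39.7 CPM). The mesenchymal level thus varied over the 4 libraries more than the endothelial level, and the ratio followed it.

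Hoxb6 reached 74.8 CPM in Pecam1-positive nuclei at E18.5, against 1.88 CPM in Pdgfra-positive nuclei (39.7-fold, 23.2 to 71.3), and Hoxb3 was 19.4-fold higher. Hoxd was 2.71-fold higher at E14.5, 4.15-fold at E18.5 and 4.96-fold at P5, with Hoxd4 at 8.92, 10.4 and 8.87-fold. Hoxd3, in whose span Hoxd4 lies, is known to act in growing blood vessels. The Hoxc sum was 9.70-fold lower at E14.5, 4.09-fold lower at E18.5 and 3.96-fold lower at P5 in Pecam1-positive nuclei, and Hoxc8, the first gene per kilobase in myonuclei, was 19.5, 8.13 and 5.39-fold lower. These nuclei were few, at 129 in the KO and 116, 132 and 103 in WT at the 3 stages.

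Tenocyte nuclei carried more Hoxd than mesenchymal nuclei at E18.5 and P5. With nuclei positive for both markers left out, the ratio of Tnmd-positive to Pdgfra-positive nuclei in the Hoxd sum was 1.01 at E14.5, 1.96 (1.60 to 2.40) for E18.5 and 3.12 (2.29 to 4.24) for P5, and 2.11 in the KO. Hoxd11 had ratios of 0.908, 2.35 (1.59 to 3.41) and 5.41 (2.98 to 9.98) at the 3 WT stages, and 2.56 in the KO. The ratios at E14.5 rest on few UMIs. All 108 Tnmd-positive nuclei of that stage, with those positive for both markers, held 20 Hoxd UMIs and 12 UMIs of paralog 11. The Hoxd genes of high number are used toward the far end of the limb. Pax7-positive, muscle stem cell nuclei, compared in the same way, held 0.894 of the mesenchymal Hox sum in the KO and 0.716, 0.896 and 0.862 of it in WT at E14.5, E18.5 and P5. Their Hoxb sum was 2.81-fold lower in the KO and 5.54-fold lower at E14.5.

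Adult myonuclei were also grouped by their leading myosin, a grouping chosen after the data were seen, and the Hox level was somewhat higher in those led by Myh4. The sum was 327 CPM (294 to 362) in 231 nuclei led by Myh2, 334 CPM (312 to 357) in 504 led by Myh1 and 374 CPM (364 to 384) in 3259 led by Myh4, the myosins of fast fibres. The interval of the Myh4 nuclei lay above those of the Myh2 and Myh1 nuclei, which overlapped each other. Only 24 nuclei were led by Myh7, the slow myosin, with 23 Hox UMIs. Hoxa7 stood apart, with 14 UMIs (12.6 CPM) in Myh2 nuclei, against 29.3 CPM in Myh4 nuclei (2.34-fold lower, 1.38 to 4.31), and 25.2 CPM in Myh1 nuclei. Hoxa3, in contrast, had 60.1, 55.0 and 51.6 CPM in the 3 groups, and Hoxc4 66.4, 69.1 and 80.8 CPM.

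The ATAC counts gave a separate readout of the same nuclei. Peaks were called in each library alone, and merging them gave 103 regions in the 4 clusters, of which 36 had a peak in all 5 libraries. A peak lay within 1000 bases of the outermost start sites of 24 members in the KO and of 21, 25, 22 and 28 members in WT from E14.5 through E18.5 and P5 to adulthood. Start sites further inside a gene were not searched. Peaks at the starts of Hoxc13 and Hoxd13 were found in all 5 libraries although these genes had 8 and 9 UMIs in both classes together. Hoxb3, Hoxc6 and Hoxc11 had no peak at their outermost start sites in any library. Open starts thus occurred at genes with hardly any RNA in these classes.

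Of the 36 regions, 4 were at least 2-fold higher in myonuclei than in Pdgfra-positive nuclei in the KO, where 23.6% of all peaks were, and 4 were at least 2-fold lower, where 19.2% of all peaks were. In WT, 2 were higher and 3 lower at E14.5 (all peaks 26.3% and 15.8%), 4 higher and 0 lower for E18.5 (20.5% and 24.8%), 4 higher and 0 lower for P5 (21.1% and 23.1%), and 9 higher and 2 lower in the adult (37.2% and 23.5%). In none of the 5 libraries was the share of higher regions above that of all peaks. The 36 regions were limited to those with a peak in all 5 libraries, whereas all peaks include those called in fewer libraries. The 2 sets are therefore not alike, and the part of this in the shares and medians was not tested. Regions at an inner Hoxa3 exon, beside the end of Hoxa4 and at the start of Hoxa5, whose sequences are given above, were among the higher ones in each library but that of E14.5. The median log2 ratio of the 36 regions was -0.19 in the KO and -0.30, 0.29, 0.34 and 0.18 in WT from E14.5 through E18.5 and P5 to adulthood, against -0.02 in the KO and -0.02, -0.10, -0.08 and 0.28 in WT for all peaks. The regions were thus above all peaks by this median at E18.5 and P5 and below them in the other 3 libraries.

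The region at the inner Hoxa3 exon (chr6:52172245-52173183) had 29.3 ATAC CPM (counts scaled by the counts of the class in all peaks of its library) in KO myonuclei and 20.9, 24.4, 38.3 and 20.0 in WT myonuclei from E14.5 through E18.5 and P5 to adulthood, against 10.1 in KO Pdgfra-positive nuclei and 18.48, 4.69, 4.6 and 3.58 in WT ones. The ratio of the classes was 1.13 (0.795 to 1.62) for E14.5, 5.18 (3.52 to 7.85) for E18.5 and 8.31 (4.76 to 15.8) for P5, and 2.87 (1.75 to 4.94) in the KO. The classes were alike at E14.5 and apart at the later stages.

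The start of Hoxa5 (chr6:52204105-52204919) followed the same course, at 32.4 in KO myonuclei and 18.9, 24.6, 32.7 and 29.5 in WT myonuclei, against 15.0 in KO and 16.1, 5.07, 6.37 and 8.6 in WT Pdgfra-positive nuclei. Its ratio was 1.16 (0.802 to 1.72) for E14.5, 4.92 (3.38 to 7.37) for E18.5 and 5.14 (3.17 to 8.85) for P5, and 2.19 (1.43 to 3.46) in the KO. Beside Hoxa4 (chr6:52188747-52189794) myonuclei had 33.5 in the KO and 9.76, 22.0, 49.4 and 28.8 in WT, against 13.2 in KO and 11.8, 7.34, 10.4 and 5.73 in WT Pdgfra-positive nuclei. There the ratio at P5 was 4.81 (3.28 to 7.32). Hoxa5 RNA was higher at E18.5 than at E14.5 in myonuclei and lower at E18.5 than at E14.5 in Pdgfra-positive nuclei. In the strict myonuclei the interval of this step included no difference. Between the classes, however, Hoxa5 RNA was lower in myonuclei at E14.5 (1.75 against 15.7 CPM), at E18.5 (4.55 against 9.84 CPM) and in the KO (4.20 against 15.1 CPM). That was the opposite of the ATAC ratio at the Hoxa5 start. At P5 Hoxa5 RNA was 8.64 CPM (7.08 to 10.4) in myonuclei and 5.73 CPM (3.83 to 8.22) in Pdgfra-positive nuclei. That was the direction of the ATAC ratio, but the intervals overlapped. In the adult the RNA ratio of 0.808 (0.311 to 2.99) included no difference.

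The outer start of Hoxa3 (chr6:52212821-52213902) behaved otherwise. It had 7.89 in KO myonuclei and 12, 7.99, 20.8 and 22.0 in WT myonuclei, against 29.4 in KO and 33.0, 13.5, 22.6 and 22.2 in WT Pdgfra-positive nuclei. The ratio of the classes was 0.364 (0.259 to 0.510) for E14.5, 0.588 (0.415 to 0.828) for E18.5, 0.914 (0.671 to 1.26) for P5 and 1.02 (0.613 to 1.84) for adult muscle, and 0.262 (0.153 to 0.435) in the KO. Hoxa3 RNA was likewise lower in myonuclei at E14.5 (7.94-fold) and E18.5 (2.35-fold), and its ratio at P5 was 1.24 (0.976 to 1.57). In the KO it was lower in myonuclei too (18.3 against 61.6 CPM). The region at the inner Hoxa3 exon went the other way from this RNA, since it was more open in myonuclei at E18.5 and in the KO.

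**Figure D5:**
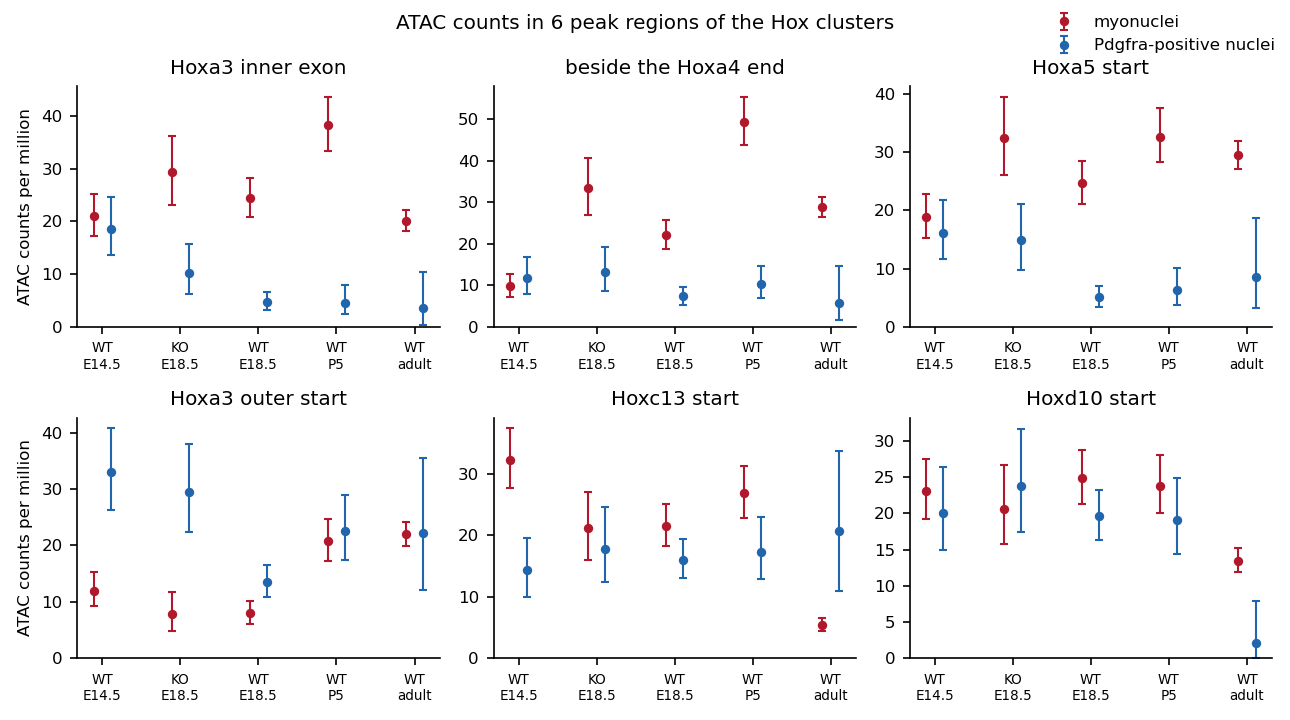
ATAC CPM in 6 peak regions of the Hox clusters by library (each axis from 0), in myonuclei and in Pdgfra-positive nuclei, with 95% intervals computed on the counts divided by 2, since most fragments are counted at both ends. At P5 the region beside Hoxa4 has 49.4 in myonuclei and 10.4 in Pdgfra-positive nuclei, and the Hoxd10 start 23.9 and 19.1.

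Summed over the promoter peaks of all members, KO myonuclei had 508 ATAC CPM and KO Pdgfra-positive nuclei 639, and at E18.5 WT myonuclei had 452 and WT Pdgfra-positive nuclei 405. The sums rest on 29 peaks (24468 bases) in the KO and 30 (25373 bases) in WT E18.5, and the scaling on 61874 and 91265 peaks called apart, so that no ratio between the libraries is given. Hoxb promoters had peaks at Hoxb4, Hoxb5 and Hoxb9 in the KO and at Hoxb5, Hoxb6 and Hoxb9 in WT E18.5.

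Genes that act with or on the Hox genes were counted from lists. Of 9 cofactors of the PBX, MEIS and PKNOX families, which bind DNA together with Hox proteins, 0 were past 2-fold in the KO in myonuclei, where 7.06% of all genes were higher and 5.75% lower, or in Pdgfra-positive nuclei, where 7.61% were higher and 5.41% lower. Of 20 Polycomb and trithorax genes, which hold Hox genes off or on, 0 were past 2-fold in KO myonuclei, and 1 was higher (Jarid2) and 1 lower (Men1) in KO Pdgfra-positive nuclei. Of 12 retinoic acid genes, a pathway that induces anterior Hox genes, 1 was lower in KO myonuclei (Rarb), and of 14 in Pdgfra-positive nuclei 1 was higher (Rxrg). Nothing is read from these counts beside the shares of all genes.

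Among limb position genes in adult over P5 myonuclei, 14 of 16 were at least 2-fold lower, Pitx1 and Tbx4 among them, and the noncoding genes of the Hox clusters (Hotairm1, Hoxaas2, Hoxaas3, Hoxa11os, Hotair and Hoxd3os1) were lower in 6 of 6, beside 35.2% of all genes. The Hox sum was higher at the same step. Carried mesenchymal RNA was also lower there: the mesenchymal collagens in myonuclei reached 14.4% of their Pdgfra-class level at P5 and 0.723% in the adult. The part of this RNA in the lower levels of these genes was not tested. In KO Pdgfra-positive nuclei 3 of 10 other genes of the clusters were at least 2-fold higher (Hoxaas2, Gm53 and Hoxb3os), with 7.61% of all genes, and Hoxb3os lies antisense to Hoxb2 and Hoxb3.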

How the data were processed

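Nuclear RNA and open chromatin of the same nuclei were measured in 5 libraries, 1 per group. Per the labels and the study's methods, the authors processed the reads with Cell Ranger ARC 2.0.0 on mm10, with intronic reads included, and deposited 1 matrix per library of whole-number counts: UMIs per gene and ATAC counts per peak called in that library. Barcodes with more than 400 and fewer than 25000 UMIs, under 10% mitochondrial UMIs and under 70000 ATAC counts were kept, after the limits of the study except its minimum of 400 ATAC counts, which was tried as an alternative. No doublet caller was run. The study gives a larger number of nuclei for the KO than the barcodes used here. Files held 21394846 to 49913899 UMIs each, and no column was left out (0).

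Counts were summed by class of nuclei and scaled to CPM. Classes can share nuclei, and 5.4% to 28.2% of myonuclei held a UMI of another class's marker. Intervals were 95% exact Poisson (levels) and exact binomial (ratios). A sum of 0 allows up to 3 counts. A gene was called past 2-fold at a CPM ratio of 2 or more in either direction with at least 20 UMIs in the 2 sums. The ATAC counts were even numbers in 83.1% to 84.5% of cases, and their intervals used counts divided by 2. Members were matched to RefSeq promoters by symbol. Members and lists were chosen with earlier results of these data known. The sums cover all 39 members, 1 of which is not reported here by itself, and values by library are given for those with at least 20 UMIs in either class of a library, the 10 with most UMIs in full, with the 3 highest and 3 lowest ratios of a comparison and the list genes past 2-fold. The ratio code was tested on simulated data. Alternatives were no filter on nuclei, at least 400 ATAC counts, a higher myonuclear limit, exclusive classes, the 5% deepest nuclei left out, scaling to the median gene, equal weight per nucleus, at least 100 UMIs, level per kilobase and a promoter window of 250 bases. The tools were scipy 1.17.1, numpy 2.4.6, pandas 2.3.3 and matplotlib 3.10.9 under Python 3.11.15.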

Additional observations from a re-analysis of the deposited data

Results flagged for a closer look

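In 11 instances the 2 main classes of nuclei differed in opposite directions between the same 2 libraries, with both intervals on 1 side of no difference, and the difference between the classes was not tested, since each group is 1 library. The Hox sum at E18.5 over E14.5 had a log2 ratio of 0.59 in myonuclei and -0.42 in Pdgfra-positive nuclei, a gap of 1.02, and at P5 over E18.5 it had 0.13 and -0.27, a gap of 0.40. Hoxa5 had 1.38 and -0.68 at E18.5 over E14.5, a gap of 2.06, and 0.92 and -0.78 at P5 over E18.5, a gap of 1.70. In the strict myonuclei, however, the interval of Hoxa5 at E18.5 over E14.5 included no difference. Hoxa3 had 0.96 and -0.58 at P5 over E18.5, a gap of 1.54. By groups of members, E18.5 over E14.5 gave 0.32 and -0.92 for paralogs 1 to 4 (a gap of 1.23), 0.68 and -0.23 for paralogs 5 to 8 (0.90), 0.65 and -0.32 for paralogs 9 to 13 (0.97), 0.52 and -0.72 for the Hoxa cluster (1.24) and 0.25 and -0.25 for the Hoxd cluster (0.50). The KO over WT at E18.5 gave -0.13 in myonuclei and 0.15 in Pdgfra-positive nuclei for the Hoxa cluster, a gap of -0.28. These sums share members and are not independent of each other.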

How the results depend on the processing

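Values are log2 ratios unless named otherwise, and the cause of each shift was not tested. Of the Hox sums whose interval excludes 0, 1 turned its direction under 1 alternative (P5, myonuclei against Pdgfra-positive nuclei, relative to the median gene). The KO against WT sum in myonuclei, main value -0.05 with an interval that includes 0, was 0.028 with no filter on nuclei, -0.14 with exclusive classes, -0.14 as the mean over nuclei and -0.17 in the strict myonuclei, an alternative chosen after seeing the data. At E18.5 over E14.5 in myonuclei (0.59) it was 0.79 with the higher myonuclear limit, 0.48 with exclusive classes, 0.74 in strict myonuclei and 0.43 relative to the median gene. At P5 over E18.5 (0.13) it was 0.21, 0.22 and 0.46 with exclusive classes, strict myonuclei and the median gene, and in the adult over P5 (0.29) it was 0.36, 0.38 and 0.74, and 0.36 as the mean over nuclei. In Pdgfra-positive nuclei the KO against WT sum (0.33) was 0.18 with no filter, the E18.5 over E14.5 sum (-0.42) was -0.49 without the 5% deepest nuclei, and the P5 over E18.5 sum (-0.27) was -0.13 relative to the median gene.

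For myonuclei against Pdgfra-positive nuclei at E14.5 (-1.80) the sum was -2.11 with the higher limit, -1.89 with exclusive classes, -1.90 without the deepest nuclei, -2.13 in strict myonuclei, -1.39 relative to the median gene and -1.92 as the mean over nuclei. At E18.5 (-0.79) it was -0.69 with no filter, and -0.89, -0.95, -0.96 and -0.50 with the higher limit, exclusive classes, strict myonuclei and the median gene. In the KO (-1.17) it was -0.84 with no filter, -1.33 with the higher limit, -1.44 with exclusive classes, -1.25 without the deepest nuclei, -1.46 in strict myonuclei, -0.91 relative to the median gene and -1.30 as the mean over nuclei. At P5, relative to the median gene, the class difference turned to 0.17 for the sum, 0.28 for paralogs 1 to 4, 0.21 for Hoxa, 0.24 for Hoxc, 0.12 for Hoxc4 and 0.30 for Hoxc8, and Hoxc10 in the adult over P5 turned to 0.13.

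With at least 100 UMIs in place of 20, fewer members were counted, and the share of all genes at that limit stands in parentheses. In KO myonuclei 0 of 14 were higher (3.54%) and 0 lower (3.97%), and at P5 over E18.5 1 of 14 was higher (6.23%) and 0 lower (16.7%). In Pdgfra-positive nuclei 4 of 17 were higher in the KO (4.08%), 2 of 16 lower at E18.5 over E14.5 (6.3%), and 0 of 15 higher (2.57%) and 0 lower (6.1%) at P5 over E18.5. Between the classes 11 of 14 were lower in myonuclei at E14.5 (23.1%), 5 of 16 at E18.5 (24.8%) and 2 of 14 at P5 (31.1%). By level per kilobase of gene span, the member first by CPM took place 2 in myonuclei at E14.5, at E18.5 and in the KO (Hoxa9) and in the adult (Hoxc4), and place 11 at P5 (Hoxc5). In Pdgfra-positive nuclei it took place 2 at E18.5 and P5 (Hoxa9) and in the adult (Hoxc4), and place 6 in the KO (Hoxc4). Depth limits the adult Pdgfra-positive nuclei (139 Hox UMIs), the Hoxb genes in myonuclei and the classes other than these 2. No paired analysis was possible because each group is 1 library.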
